A study of Americamysis bahia with 35 samples.

Results

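The comparison described here sets juvenile mysids held in weathered tire-wear particle (TWP) leachate at 2.68 g/L against juvenile mysids held in seawater without leachate. Its members were chosen by their labels and are the 5 libraries of weathered 2.68 g/L and the 5 libraries of the control at 0 g/L, 10 of the 35 libraries of the series. Both groups were whole bodies of Americamysis bahia with an age label of 5 days. Exposure was through the water and lasted 96 h at 25 °C in filtered seawater of 25 ppt, with Artemia nauplii as food. The weathered animals received leachate made with that seawater, and the control animals received the seawater alone. The other 25 libraries, 5 in each of weathered 0.67 and 1.34 g/L and unweathered 0.27, 0.54 and 1.08 g/L, entered the fits to estimate the spread between libraries and are given only beside the features described. Whether a library stands for its own animal, a pool or a tank is left unsaid by the labels. The p-values therefore cover only the spread between the sequenced samples, and part of that spread may be technical. The labels do not describe how the particles were weathered.

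Americamysis bahia is a small estuarine crustacean that broods its young in a pouch and is widely used in toxicity tests of seawater. Tire rubber carries zinc oxide, vulcanization agents and antioxidants, part of which passes into water as a leachate. Crustaceans commonly answer dissolved metals and organic compounds with changes in the transcripts of detoxification enzymes, metal-binding proteins and chaperones, and whole-body RNA mixes all tissues of the animal. In such bulk RNA fewer cells of a type and less RNA per cell cannot be told apart.

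The transcript IDs are not paired with gene names in the files, and no annotation was at hand. Features are therefore described by their IDs, isoforms and levels, with at most 2 IDs that rose and 2 that fell, and other features are given by their length or their number of isoforms. A Trinity gene is a group of assembled transcripts, called isoforms, that share an ID up to its last suffix. Marker genes of tissues or of the Artemia food were not used here, so the whole-body label was not checked against them. The part of food RNA in any result was not tested.

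The 10 libraries were of like depth. Estimated counts totalled 21541999 to 27765096 in the weathered 2.68 g/L libraries (mean 24495500 ± 2660340, SD, n = 5) and 18081325 to 26636831 in the control libraries (mean 23407600 ± 3195790, SD, n = 5), a difference within the spread between libraries (two-sided exact permutation test, p = 0.595). Trinity genes with at least 1 count averaged 20888 in the weathered libraries and 20557 in the control libraries (exact permutation p = 0.167). The median correlation of log2 CPM of a library with the others of its group averaged 0.955 in weathered libraries and 0.965 in control libraries (exact permutation p = 0.0238, adjusted p = 0.143 over 6 library measures, where 0.00794 is the smallest p that 5 against 5 allows). Libraries of a group share correlations, which were not recomputed for each arrangement, so this p is only a rough guide. The first 3 principal components of the 10 libraries held 23.6%, 17.1% and 14.6% of the variance, and the groups did not separate on them by the test (exact permutation p = 0.262, 0.611 and 0.0556).

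Summed to Trinity genes, 143 genes rose and 25 fell at weathered 2.68 g/L against the control, of 17990 tested. The 168 called genes are 0.934% of those tested, 0.795% for rises and 0.139% for falls. The median rise was 1.72-fold and the median fall 1.90-fold, whereas the median absolute log2 change over all tested genes was 0.18. Called genes that rose held 2.41% ± 0.223 of all TPM in weathered 2.68 g/L libraries and 1.31% ± 0.216 in control libraries (SD, n = 5 each). Those that fell held 0.253% ± 0.0629 in weathered 2.68 g/L libraries and 0.737% ± 0.288 in control libraries (SD, n = 5 each). TPM is a length-scaled share of a library, and these sums describe genes chosen on the same libraries. A gene was called by edgeR's quasi-likelihood test at a Benjamini-Hochberg adjusted p under 0.05. The count rested on several single libraries. It was 81 without weathered replicate 3, 87 without weathered replicate 5, 107 without control replicate 1, 107 without control replicate 2, 109 without control replicate 3 and 111 without control replicate 5. With the 10 libraries fitted alone it was 51, with total-count scaling 96, and with limma on log2(TPM + 1) it was 87 (65 higher and 22 lower, 74.7% higher against 85.1% here).

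Most rises were small. Of the 143 genes, 47 rose less than 1.5-fold, 49 rose from 1.5-fold to under 2-fold and 47 rose at least 2-fold, of which 14 rose at least 4-fold. The 96 genes that rose less than 2-fold varied little, with a median coefficient of variation of 14.8% among weathered 2.68 g/L libraries and 12.7% among control libraries. Their control levels had a median of 20.5 CPM. The 14 genes that rose at least 4-fold had lower control levels in CPM and were more variable. Their mean levels ran from 0.514 to 99.9 CPM (median 22.3) in weathered 2.68 g/L libraries and from 0.0999 to 24.5 CPM (median 2.94) in control libraries, with median coefficients of variation of 49.0% and 51.0% in that order of groups. CPM, counts scaled to the library size after TMM scaling, is not corrected for length, so changes are compared within a gene. Across genes, level and abundance in CPM stand for counts, which also depend on length.

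Among genes with a control mean of at least 100 CPM, 27 rose, by log2 changes of 0.33 to 1.90 (median 0.75), and 5 fell, by log2 changes of -2.94 to -0.86. In 23 of these 27 rises and 3 of these 5 falls the weathered 2.68 g/L libraries did not overlap the control libraries. Over all tested genes, of any level, the weathered libraries lay wholly above the control in 1.63% and wholly below it in 1.12%. The 27 and 5 genes were called on these same libraries, so their lack of overlap is a description. At the other end, the largest fitted rise belonged to a gene with 5 to 1569 counts in the weathered 2.68 g/L libraries, 1702 in all, against 23 over the 5 control libraries. The fitted log2 value was 6.12 ± 1.49 SE (edgeR adjusted p = 0.0375), and 4 of the 5 weathered libraries lay above the control mean. A single weathered library thus held 1569 of the 1702 counts.

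Falls were fewer. All 5 weathered 2.68 g/L libraries lay below the control mean in each of the 25 genes, as they lay above it in 139 of the 143 genes that rose. Both lists were called on these same libraries, so these counts largely follow from the choice of the genes. Of the 25, 12 fell at least 2-fold, 9 fell from 1.5-fold to under 2-fold and 4 fell less. One called gene, of low level, had 0 counts in all 5 weathered libraries and 72 over the 5 control libraries, 4 to 24 in each. Set against a floor of 3 counts over the weathered group, it was 23.9-fold lower (edgeR adjusted p = 0.0108), a ratio that depends on the floor.

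The groups did not overlap in 110 of the 143 genes that rose and in 21 of the 25 that fell. Over all tested genes, all 5 weathered 2.68 g/L libraries lay above all 5 control libraries in 293 genes (1.63%) and below them in 202 (1.12%), together 495 genes (2.75%). Of these 495, 364 were not called. Without adjustment, 1875 of the 17990 genes had p under 0.05 by edgeR.

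**Figure D1:**
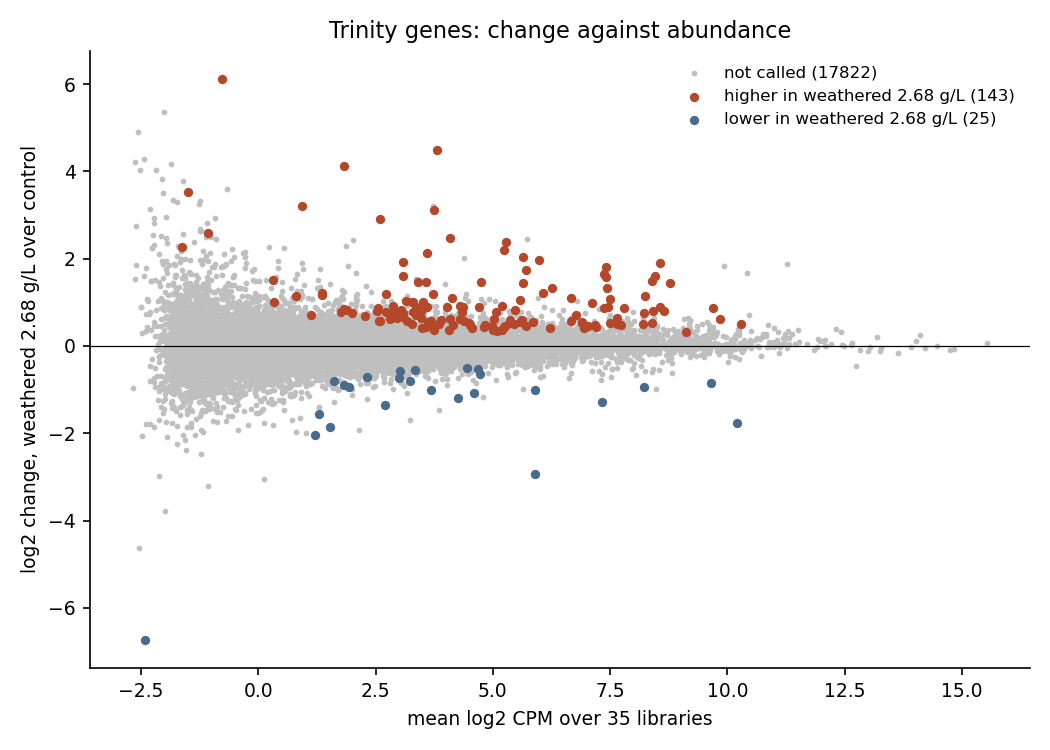
Log2 change of each tested Trinity gene, weathered 2.68 g/L over control (vertical axis), against its mean log2 CPM over 35 libraries (horizontal axis). Points in colour passed edgeR's test, 143 above 0 and 25 below 0, and 17822 grey points did not. The lowest point is the gene with 0 counts in all 5 weathered libraries, whose fitted value depends on the fit and is no measured fold.

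The plot of change against abundance shows the called genes spread over the middle and upper range of levels. Split into 4 bins of equal size by mean level, from the least to the most abundant, 7, 18, 53 and 90 genes were called, or 0.156%, 0.400%, 1.18% and 2.00% of each bin. The median standard error of the log2 change was 0.48, 0.25, 0.15 and 0.12 in the same bins. Genes that differed at least 2-fold by the fit, called or not, numbered 460, 81, 28 and 42 in the same order. The 611 in all comprised 390 above and 221 below the control, and 59 of them were called. In the lowest bin a 2-fold difference was thus seldom distinguishable from the spread between libraries.

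The weathered 2.68 g/L libraries showed the rises to unequal degrees. Over the 143 genes, the median log2 difference from the control mean was 0.45, 0.65, 0.97, 0.71 and 0.92 in weathered replicates 1 to 5, and 0.064, 0.032, 0.0072, -0.032 and -0.062 in control replicates 1 to 5. Replicate 3 was the highest weathered library and replicate 1 the lowest, and no weathered library reached the range of the control. Within the weathered group, replicate 1 had the lowest value in 92 of the 143 genes, and replicate 3 had the highest in 62. For the 25 genes that fell, the medians were -0.90, -0.78, -1.01, -1.20 and -0.87 in weathered replicates 1 to 5, and 0.17, 0.12, -0.15, -0.19 and 0.23 in control replicates 1 to 5. Replicate 1 was not the weakest library for the falls, where replicate 2 lay closest to the control. The genes were chosen on these libraries, so the distance between groups is a description. Over all tested genes the same median lay between 0.014 and 0.028 in the weathered libraries. Their TMM scaling factors, 1.11, 1.14, 0.933, 1.05 and 0.948 in replicates 1 to 5, were low in the replicates with the largest rises. The part of these factors in the differences between replicates was not tested.

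**Figure D2:**
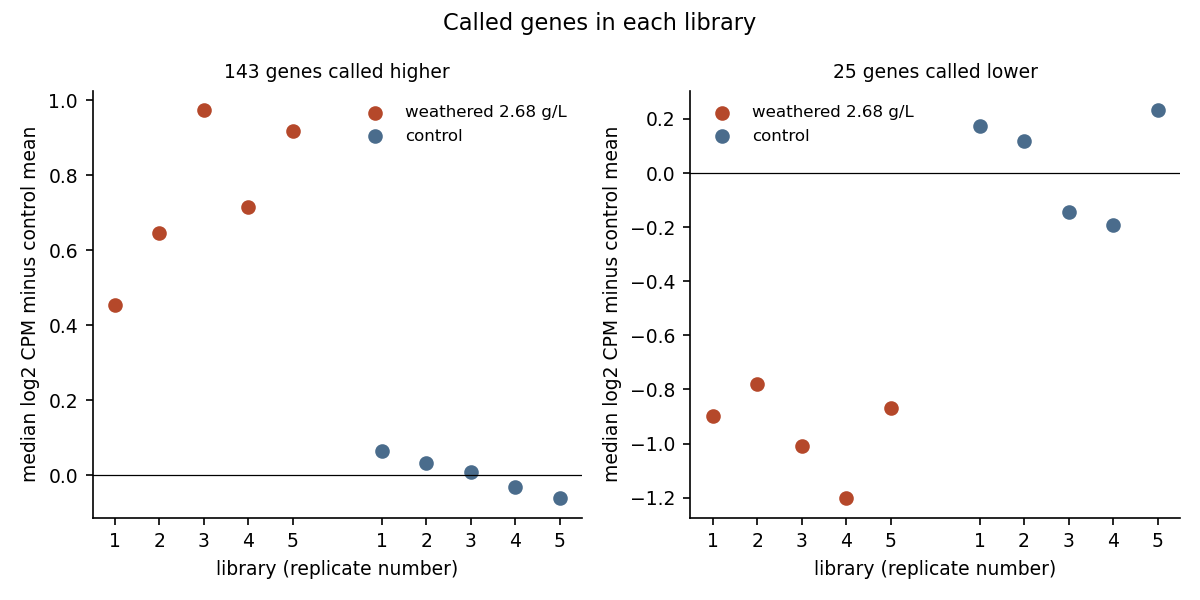
Median difference in log2 CPM from the control mean (vertical axis) in each library (horizontal axis, replicate number), for the 143 Trinity genes called higher (left) and the 25 called lower (right). Points stand for weathered 2.68 g/L libraries at the left of each panel and control libraries at the right. Weathered libraries lie between 0.45 and 0.97 for rises and between -1.20 and -0.78 for falls.

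By a rule on size, the largest rise among Trinity genes with a mean log2 CPM of at least 1 and all weathered libraries on 1 side of the control mean was that of TRINITY_DN2935_c0_g1, a Trinity gene of 3 isoforms. Its level was 14.2, 37.5, 147, 67.2 and 137 CPM in weathered 2.68 g/L replicates 1 to 5, and 4.60, 4.26, 4.84, 2.11 and 1.92 CPM in control replicates 1 to 5. All weathered libraries lay above all control libraries, and they differed among themselves far more than the controls did, with replicate 1 lowest. The mean was 80.6 ± 59.3 CPM in the weathered group and 3.55 ± 1.42 CPM in the control (SD, n = 5 each), or 49.9 ± 32.9 and 2.53 ± 1.11 on the TPM scale in that order of groups. This was a 22.5-fold rise (log2 4.49 ± 0.85 SE, edgeR adjusted p = 0.00382).

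TRINITY_DN2935_c0_g1 rose mainly through its longer isoforms. The isoform of 2430 bases made up 73.3% of the gene's counts in weathered 2.68 g/L libraries and 60.4% in control libraries, and its own log2 change was 4.79 (edgeR adjusted p = 0.00527). That of 2508 bases made up 24.9% in weathered libraries and 34.1% in control libraries, with a log2 change of 4.00 (edgeR adjusted p = 0.0329). The isoform of 1999 bases, with 1.75% in weathered and 5.41% in control libraries, had a log2 value of 2.76 and was not called (edgeR adjusted p = 0.328). None of the 3 isoforms of this gene was called for its share.

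The smallest adjusted p of all tested transcripts belonged to TRINITY_DN5399_c0_g1_i1, the single isoform of its Trinity gene, 14190 bases long and the longest called transcript. It had 498, 413, 481, 433 and 373 CPM in weathered 2.68 g/L replicates 1 to 5, and 207, 201, 181, 181 and 230 CPM in control replicates 1 to 5. The groups lay well apart, each with a narrow spread, and weathered replicate 1 was here the highest library. Means were 440 ± 50.6 CPM in the weathered group and 199.97 ± 20.4 CPM in the control (SD, n = 5 each), or 42.0 ± 6.99 TPM and 20.2 ± 3.36 TPM in that order. The rise was 2.20-fold (log2 1.14 ± 0.098 SE, edgeR adjusted p = 2.92e-08).

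TRINITY_DN13160_c0_g1, a Trinity gene with 1 isoform of 3178 bases, had the largest fall by the same rule. It stood at 31.6, 24.6, 24.5, 22.7 and 22.1 CPM in weathered 2.68 g/L replicates 1 to 5, and at 352, 211, 95.8, 78.4 and 225 CPM in control replicates 1 to 5. The weathered libraries were all low and close together, while the control libraries were all higher and spread widely. Its mean was 25.1 ± 3.80 CPM in the weathered group and 192 ± 111 CPM in the control (SD, n = 5 each), or 14.6 ± 3.38 TPM and 120 ± 73.6 TPM in that order. It was 7.66-fold lower (log2 -2.94 ± 0.41 SE, edgeR adjusted p = 0.000134).

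TRINITY_DN9575_c0_g2_i1, the single isoform of its Trinity gene and 948 bases long, had the smallest adjusted p among the falling transcripts not yet named. It had 746, 854, 661, 732 and 528 CPM in weathered 2.68 g/L replicates 1 to 5, and 3677, 2516, 1714, 1247 and 2747 CPM in control replicates 1 to 5. No library of the groups overlapped, and the control libraries again varied more. The mean was 704 ± 120 CPM in the weathered group and 2380 ± 944 CPM in the control (SD, n = 5 each). On the TPM scale, which allows levels of different transcripts to be compared, it stood at 1357 ± 367 in the weathered group and 4866 ± 2135 in the control, the highest of the 4 named features in both groups. The fall was 3.38-fold (log2 -1.76 ± 0.27 SE, edgeR adjusted p = 0.000518). With the 10 libraries fitted alone its edgeR adjusted p was 0.0542, short of the threshold. Control replicates 1, 5, 2, 3 and 4 formed the same order from high to low in both falling features.

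**Figure D3:**
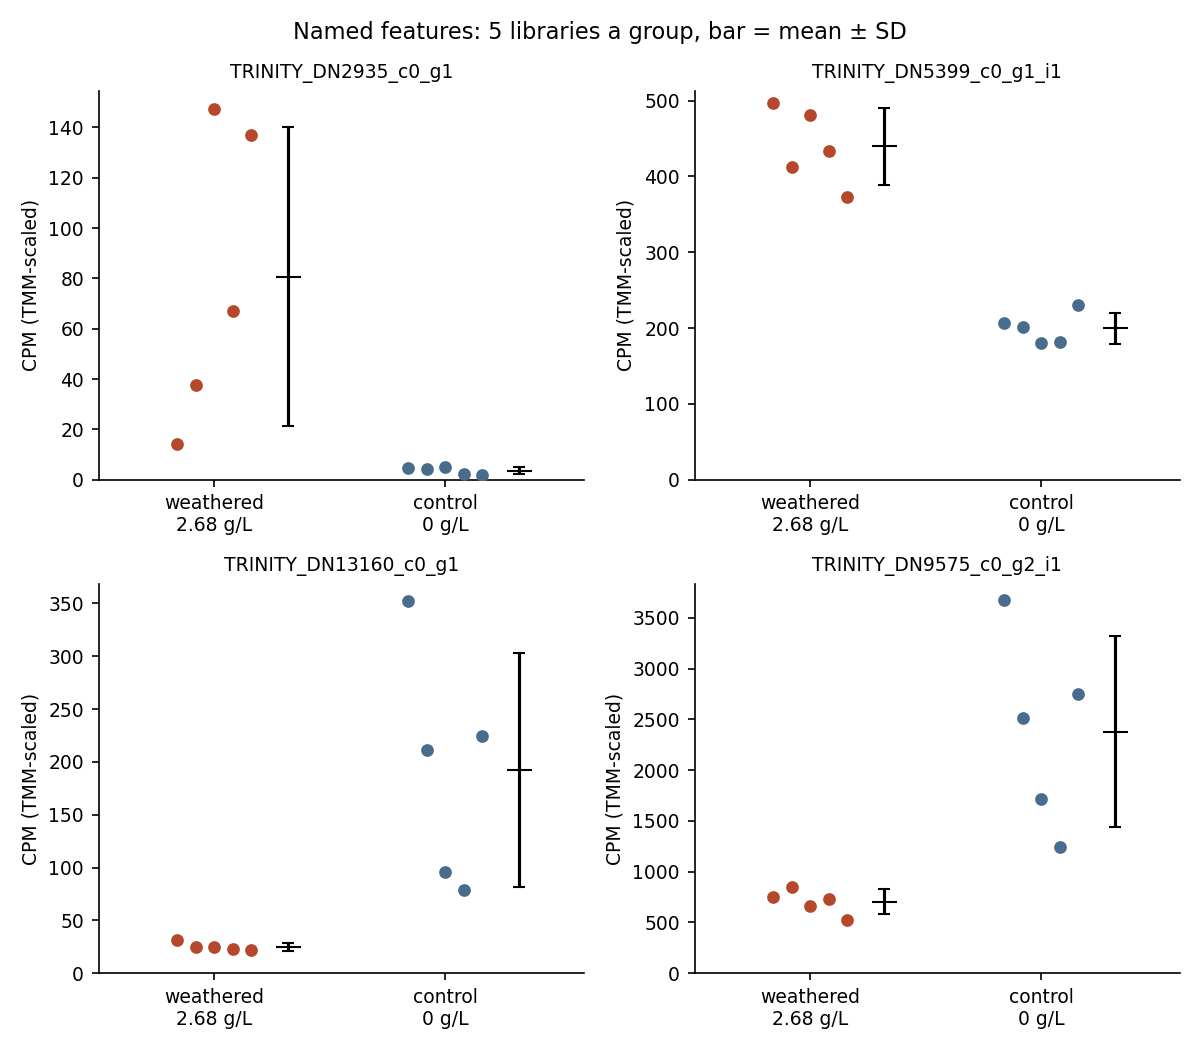
Level in CPM (vertical axes, from 0) of the 4 named features in 5 weathered 2.68 g/L libraries (left in each panel) and 5 control libraries (right), with bars for mean ± SD. The upper panels hold the rising features and the lower panels the falling ones, and the groups overlap in none of the 4.

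At the lower weathered concentrations the means of the 4 features lay between their control and 2.68 g/L means. Every comparison uses the same 5 control libraries, so the changes at different concentrations are not independent of each other, and differences between concentrations were not tested. The mean of TRINITY_DN5399_c0_g1_i1 was 258 ± 19.0 CPM at 0.67 g/L and 327 ± 30.6 CPM at 1.34 g/L (SD, n = 5 each). Its log2 change against the control was 0.37 at 0.67 g/L, which did not pass (edgeR adjusted p = 0.139), and 0.71 at 1.34 g/L, which did (edgeR adjusted p = 0.00096). TRINITY_DN2935_c0_g1 averaged 6.84 ± 4.70 CPM at 0.67 g/L and 7.53 ± 8.00 CPM at 1.34 g/L, and was called at neither (edgeR adjusted p = 0.647 and 0.678). Its single libraries at these concentrations reached down into the control range.

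TRINITY_DN13160_c0_g1 averaged 102 ± 30.4 CPM at 0.67 g/L and 91.8 ± 18.8 CPM at 1.34 g/L (SD, n = 5 each), with log2 changes of -0.92 and -1.07 that did not pass (edgeR adjusted p = 0.262 and 0.326). TRINITY_DN9575_c0_g2_i1 averaged 1806 ± 432 CPM at 0.67 g/L and 1565 ± 192 CPM at 1.34 g/L, with log2 changes of -0.40 and -0.60 that did not pass either (edgeR adjusted p = 0.680 and 0.562). The spread of the control libraries of both features covered these means.

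**Figure D4:**
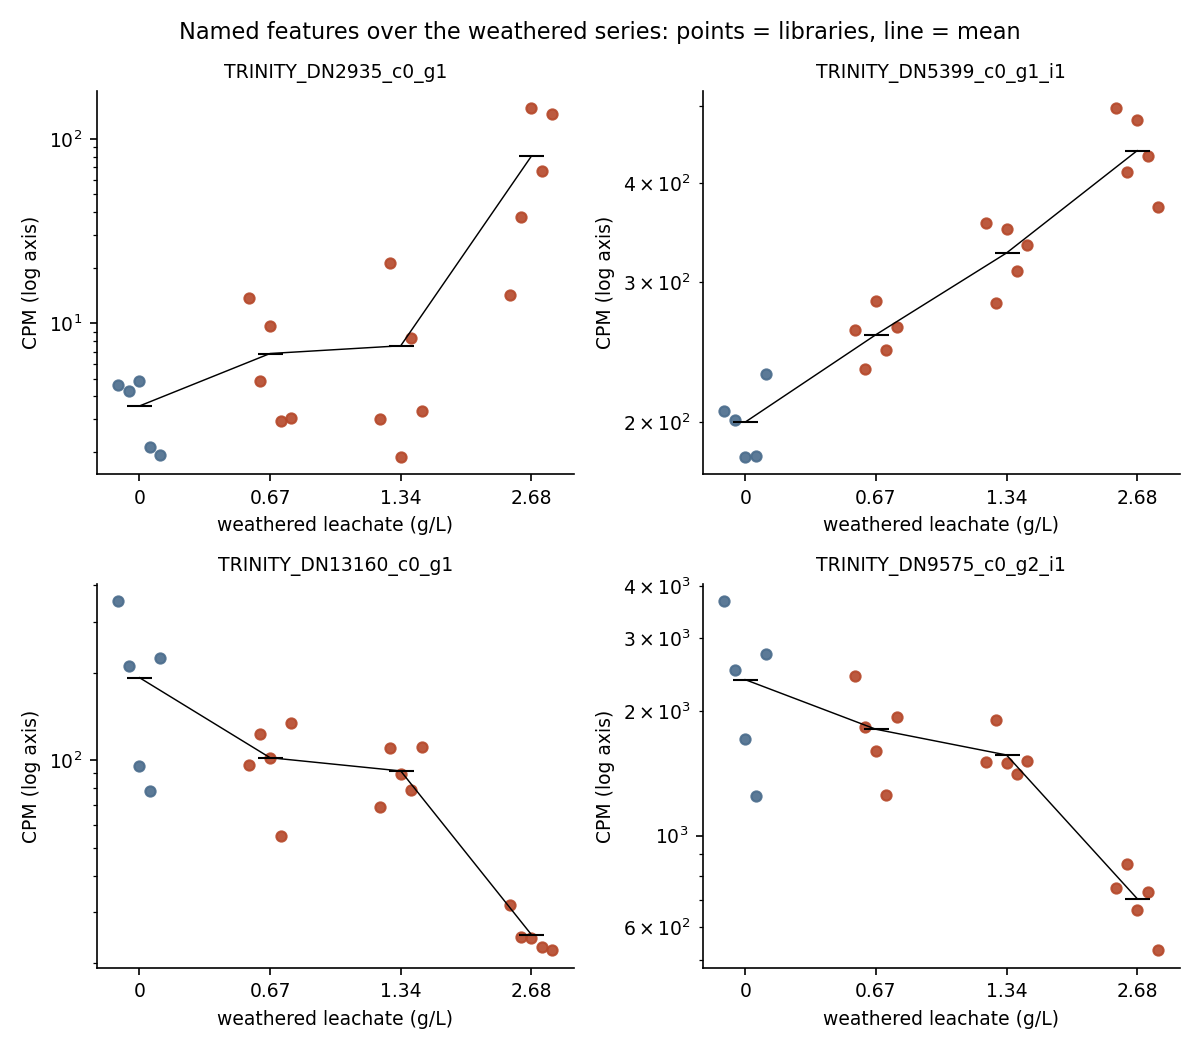
Level in CPM (vertical axes, logarithmic) of the 4 named features at 0 g/L (control), 0.67, 1.34 and 2.68 g/L of weathered leachate (horizontal axes). Points are libraries, 5 a group, and the line joins the means. The 2.68 g/L libraries of TRINITY_DN13160_c0_g1, at 22.1 to 31.6 CPM, lie below all libraries of the lower concentrations.

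Unweathered leachate was used at other concentrations, so its values are set beside those above without a comparison of the leachates. At unweathered 0.27, 0.54 and 1.08 g/L TRINITY_DN2935_c0_g1 averaged 7.95 ± 3.38, 34.9 ± 40.7 and 165 ± 87.1 CPM (SD, n = 5 each), and TRINITY_DN5399_c0_g1_i1 averaged 254 ± 39.8, 347 ± 34 and 391 ± 17.1 CPM. TRINITY_DN13160_c0_g1 averaged 89.7 ± 25.6, 38.6 ± 26.2 and 28.7 ± 16.3 CPM, and TRINITY_DN9575_c0_g2_i1 averaged 1610 ± 292, 1041 ± 387 and 516 ± 237 CPM in the same order. Against the shared control, the log2 changes at 1.08 g/L were 5.53, 0.97, -2.75 and -2.20 in the order in which the features are listed here (edgeR adjusted p = 0.000322, 4.36e-07, 9.79e-05 and 1.3e-05).

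The lists called at weathered 2.68 g/L were also followed in the other groups against the same control. For the 143 genes that rose, the median log2 change was 0.37, 0.37 and 0.78 at weathered 0.67, 1.34 and 2.68 g/L, where the last value comes from the choice of the genes. It was 0.34, 0.52 and 0.79 at unweathered 0.27, 0.54 and 1.08 g/L. For the 25 genes that fell, the medians were -0.49, -0.48 and -0.93 at weathered 0.67, 1.34 and 2.68 g/L and -0.35, -0.41 and -0.81 at the unweathered concentrations. Over all tested genes the median lay at 0.022, 0.023 and 0.021 at the weathered concentrations. The control libraries that helped to choose these genes stand in every one of these changes, so the shared direction is no independent result.

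At the level of single transcripts, 101 rose and 19 fell at weathered 2.68 g/L, of 27420 tested. The 120 called transcripts are 0.438% of those tested, 0.368% for rises and 0.0693% for falls. Called transcripts were of ordinary length, with a median of 1578 bases for rises (343 to 14190) and 1894 bases for falls (575 to 3851), while tested transcripts had a median of 1911 bases. The count was 62 without weathered replicate 3, 69 without weathered replicate 5 and 17 with the 10 libraries fitted alone, and DESeq2 called 249.

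The 120 transcripts lay in 108 Trinity genes, of which 101 (93.5%) were also called as genes. In the other direction, 60.1% of the 168 called genes held a called transcript. In the remaining 67 called genes, 58 higher and 9 lower, the smallest edgeR adjusted p of any isoform ran from 0.0548 to 0.781 with a median of 0.0809, and 47 of the 67 had one under 0.1. Of these 67 genes, 31 had a single tested isoform, for which the test at both levels rests on nearly the same counts and differs in the number of features tested, and 36 had 2 or more.

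Some isoforms were called where their gene was not. In 7 called transcripts, 4 higher and 3 lower, the Trinity gene was not called, and all 7 belonged to genes with 2 or more tested isoforms. Their median absolute log2 change was 1.45, against 0.28 for their genes, and 2 of the 7 genes had a change of the opposite sign. A gene not called may still have moved, as the lowest edgeR adjusted p among these genes was 0.0858, at a log2 change of -0.35. Of the 7 transcripts, only that of 1716 bases was also called for its share. One of the 7, an isoform of 1157 bases, had 0 counts in all 5 control libraries and 71 in the weathered 2.68 g/L libraries, found in 4 of the 5. Set against a floor of 3 counts over the control group, it was 23.7-fold higher (edgeR adjusted p = 0.0379). Single weathered libraries held 0 to 32 counts, so the groups overlap at 0 and this ratio is no firm lower bound. kallisto divides reads among similar isoforms, so the level of 1 isoform carries more uncertainty than the sum over its gene, and the part of that division in these 7 was not tested.

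The share of an isoform within its Trinity gene changed in 10 of 13249 tested isoforms (0.0755%), 6 higher and 4 lower, in 6 genes. The test was limma's on the log2 ratio of an isoform's counts to those of the other isoforms of its gene, with an adjusted p under 0.05. Of the 6 genes, 2 were also called as genes, while 1.06% of all tested Trinity genes with several isoforms were called. Both tests use the same counts, so this is a description. The count was 4 without weathered replicate 3, without weathered replicate 4 or without control replicate 3, and 2 with the 10 libraries fitted alone.

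The clearest change of shares lay in a Trinity gene with 4 isoforms of 1914 to 1920 bases. Its isoform of 1915 bases made up 61.1%, 71.1%, 79.0%, 65.7% and 66.5% of the gene's counts in weathered 2.68 g/L replicates 1 to 5, and 6.74%, 2.71%, 7.37%, 6.47% and 7.80% in control replicates 1 to 5. A minor isoform in every control library was thus the main one in every weathered library. Its mean share was 68.7% ± 6.78 in the weathered group and 6.22% ± 2.03 in the control (SD, n = 5 each), a change in log2 ratio of 5.14 (SE 0.84, limma adjusted p = 0.00417). The main control isoform, of 1920 bases, made up 23.5% ± 6.69 in the weathered group and 84.7% ± 5.60 in the control (log2 ratio -4.27, SE 0.58, limma adjusted p = 0.000402).

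Of these 2 isoforms, only that of 1915 bases was called by its level. The isoform of 1915 bases had 35.4, 64.0, 130, 45.4 and 79.5 CPM in weathered 2.68 g/L replicates 1 to 5, and 1.97, 0.714, 1.5, 1.44 and 1.92 CPM in control replicates 1 to 5. Replicate 3 was again the highest weathered library and replicate 1 the lowest. The main control isoform averaged 21.5 ± 3.64 CPM in the weathered group and 20.7 ± 2.36 CPM in the control (SD, n = 5 each), a log2 difference of 0.05 that was not called (edgeR adjusted p = 0.985). The isoform of 1914 bases was called higher too, at 6.97 ± 3.31 CPM in the weathered group and 1.71 ± 0.679 CPM in the control (log2 change 2.01, edgeR adjusted p = 0.0239). The isoforms of this gene are close in length, and the part of kallisto's division of reads among them was not tested. The sum over the gene averaged 99.9 CPM in the weathered group and 24.5 CPM in the control (log2 change 2.03, SE 0.32, edgeR adjusted p = 0.000601). The 1915-base isoform made up, at weathered 0.67 and 1.34 g/L, 25.5% ± 20.8 and 35.6% ± 23.4, and, at unweathered 0.27, 0.54 and 1.08 g/L, 27% ± 13.5, 52.3% ± 16.6 and 74.4% ± 6.19 (SD, n = 5 each).

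**Figure D5:**
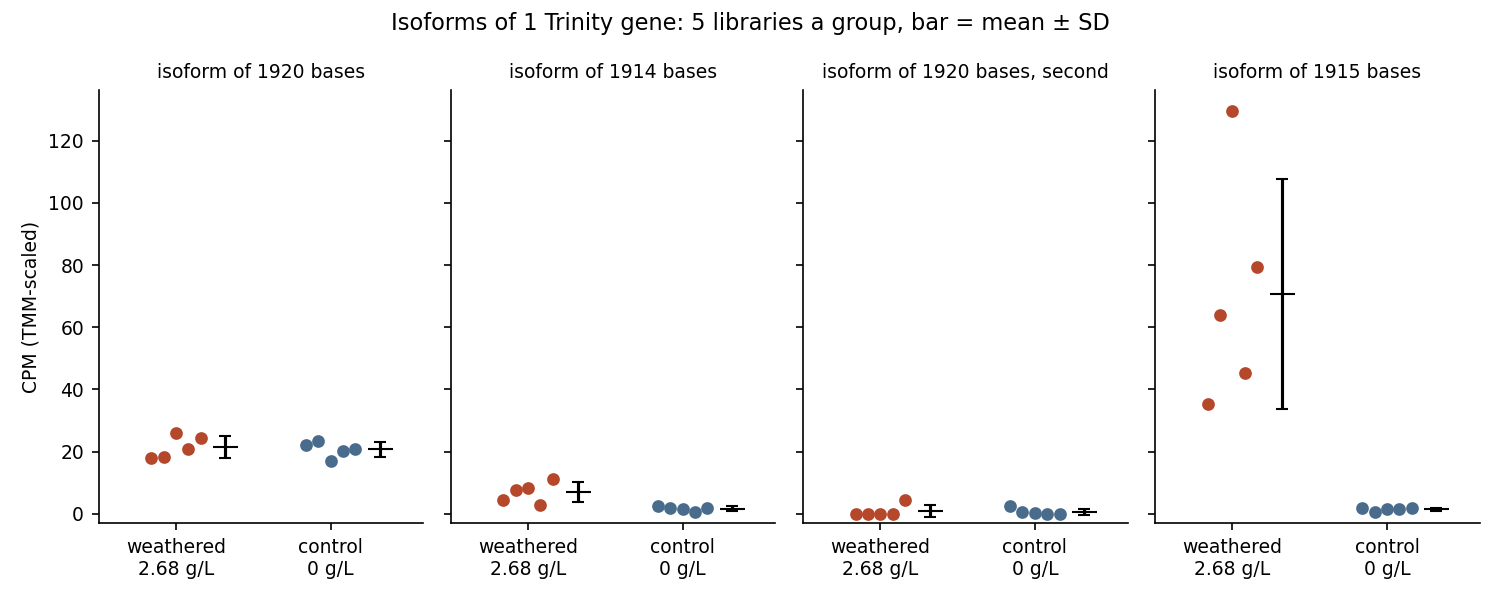
Level in CPM (vertical axis) of the 4 isoforms of the Trinity gene with the largest change in shares, in 5 weathered 2.68 g/L libraries (left in each panel) and 5 control libraries (right), with bars for mean ± SD. The isoform of 1915 bases lies at 35.4 to 130 CPM in weathered libraries and at 0.714 to 1.97 CPM in control libraries, and the first isoform of 1920 bases overlaps between the groups.

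In other genes the shares moved while the sum hardly did. A Trinity gene with isoforms of 797 and 1115 bases held 0.839% ± 1.66 of its counts in the shorter one at weathered 2.68 g/L and 10.3% ± 4.88 in the control (SD, n = 5 each; log2 ratio -4.67, limma adjusted p = 0.00417). That isoform had 0, 0, 2, 0 and 16 counts in weathered replicates 1 to 5, and 25, 32, 36, 24 and 39 counts in control replicates 1 to 5. All weathered libraries lay below all control libraries, on low counts. With 3 of the 5 weathered libraries at 0, the size of the log2 ratio depends on the pseudocount of 0.5. By its own level the isoform was not called (log2 value -2.94, edgeR adjusted p = 0.209). The gene itself averaged 14.2 CPM in the weathered group and 13.3 CPM in the control (edgeR adjusted p = 0.960). A second such gene had its isoform of 1716 bases at 12.3% ± 2.46 in the weathered group and 5.40% ± 0.969 in the control (log2 ratio 1.28, limma adjusted p = 0.0116), at gene levels of 39.3 CPM and 40.9 CPM in that order.

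Smaller shifts were found in abundant genes. In a gene with 4 tested isoforms, that of 2303 bases made up 45.5% ± 2.57 of the counts in the weathered 2.68 g/L group and 36.6% ± 2.24 in the control (limma adjusted p = 0.0295). Its isoform of 3253 bases made up 14.8% ± 2.77 in the weathered group and 24.4% ± 2.57 in the control (limma adjusted p = 0.0357). This gene rose as a whole, with 1419 CPM in the weathered group and 1001 CPM in the control (log2 change 0.50, edgeR adjusted p = 0.0458). The last 2 called isoforms, of 9436 and 5219 bases, held 0.715% and 7.39% of their genes in the weathered group and 0.551% and 6.41% in the control (limma adjusted p = 0.0295 and 0.0357). Their genes stood at 42429 and 14933 CPM in the weathered group and 40752 and 13819 CPM in the control, and neither was called (edgeR adjusted p = 0.952 and 0.891).

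The authors' deposited table for this comparison lists 13326 transcripts, of which 153 had an adjusted p under 0.05, 131 higher and 22 lower. Its own tags are stricter and mark 50 as up and 9 as down. The 59 tagged transcripts have an adjusted p under 0.05 and a change of at least 2-fold. The counts that follow use the adjusted p alone. Of the 120 transcripts called here, 105 (87.5%) had an adjusted p under 0.05 in the authors' deposited table too, all in the same direction. They are 68.6% of the 153 there. The other 15 are not listed in the authors' deposited table, as are 14094 of the transcripts tested here. Of the 153 transcripts under 0.05 in the authors' deposited table, 90.2% lie in a Trinity gene called here. That table covers the same comparison of this series, so the shared calls are no independent result. Run on its 13326 transcripts, the edgeR fit used here called 152, 130 higher and 22 lower. For the named features the authors' deposited table gives log2 changes of 4.78 for TRINITY_DN2935_c0_g1_i11 and 3.99 for TRINITY_DN2935_c0_g1_i12. It gives 1.13 for TRINITY_DN5399_c0_g1_i1, -2.95 for TRINITY_DN13160_c0_g1_i5 and -1.76 for TRINITY_DN9575_c0_g2_i1.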

How the data were processed

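RNA from whole juvenile mysids was poly(A)-selected and made into directional libraries, per the labels' protocols. The authors deposited an estimated count and a TPM for each of 34903 Trinity transcripts in each library, per the file headers. The submitters' processing notes name Trimmomatic 0.38, a read trimmer, kallisto, which estimates transcript counts, and DESeq2. For the assembly and for the kallisto version the sources used here give nothing. In the authors' deposited table, the log2 fold change and log CPM stand beside a signed fold-change score and an F score. The p-value and its adjusted form follow, per the file headers. These headers do not say which tool gave the values.

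Estimated counts were rounded, and summed over isoforms before rounding for 22900 Trinity genes. Features were kept by filterByExpr (minimum count 10, minimum total 15). edgeR 4.0.16 in R 4.3.3 fitted 7 group means to all 35 libraries with TMM scaling, and its quasi-likelihood test compared weathered 2.68 g/L with the control. The Benjamini-Hochberg adjustment ran over all features tested. A standard error is the absolute log2 change over the square root of F. Isoform shares were tested with limma 3.58.1 on log2 ratios with a pseudocount of 0.5 where both sides had a mean count of at least 10. Library measures were compared by two-sided exact permutation tests over 252 arrangements. DESeq2 1.42.0 was an alternative.

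Named were the largest rise and fall among Trinity genes with adjusted p under 0.05, mean log2 CPM of at least 1 and all 5 weathered libraries on 1 side of the control mean, and the rising and falling transcript of smallest adjusted p outside those genes. The comparison, the lists and this rule were chosen with earlier results of these data known. Gene lists and tissue markers were not run, since the files do not pair IDs with names.

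The tests were checked on simulated counts with 200 changed features. For 17836 Trinity genes, 17.6% of 1.5-fold, 50.8% of 2-fold and 85.3% of 4-fold changes were called, and 5.61% of calls were false. For 26886 transcripts the shares were 11.5%, 34.3% and 66.7%, with 3.9% false. For 13161 isoform shares they were 3.03%, 13.3% and 45%, with 2.38% false. There 103 of the 200 changed isoforms were tested, and a call on any isoform of a changed gene counted as true. All counts were drawn independently from the count model that edgeR assumes, with a spread estimated from these data. The shares of false calls therefore cannot speak for real libraries whose genes vary together.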

Additional observations from a re-analysis of the deposited data

Results flagged for a closer look

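Of 68 sets of 5 values examined for 1 library far from the other 4, 9 held one, where chance gives about 5%. Among named features, TRINITY_DN13160_c0_g1 reached 31.6 CPM in 1 weathered 2.68 g/L library, against 22.1 to 24.6 CPM in the others, and 85.3 CPM in 1 unweathered 0.54 g/L library, against 23.6 to 29.7 CPM in the others. TRINITY_DN9575_c0_g2_i1 reached 1901 CPM in 1 weathered 1.34 g/L library, against 1411 to 1513 CPM, and 932 CPM in 1 unweathered 1.08 g/L library, against 330 to 456 CPM.

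The 797-base isoform whose share fell made up 3.79% of its gene in weathered 2.68 g/L replicate 5 and 0 to 0.402% in the other weathered libraries, so its 1115-base partner stood at 96.2% there and at 99.6% to 100% in the others. The share of the 1915-base isoform was 2.71% in control replicate 2 and 6.47% to 7.80% in the other controls.

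Control replicate 4 stood apart by its TMM factor, 0.922 against 1.08 to 1.13 in the other controls, and by the share of TPM held by its 10 most abundant transcripts, 19.4% against 14.7% to 15.9%. It was also the control library of lowest depth. Without it, 120 Trinity genes, 102 transcripts and 12 isoform shares were called.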

How the results depend on the processing

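Counts of called features moved with the processing. Against 168 Trinity genes, the fit of the 10 libraries alone called 51, total-count scaling 96, limma on log2(TPM + 1) 87 and on log2(TPM + 0.1) 83, and leaving out 1 library gave 81 to 203. At log2(TPM + 0.1), 73.5% of calls were higher. Against 120 transcripts, the 10 libraries alone gave 17, DESeq2 249 and leaving out 1 library 62 to 142. Against 10 isoform shares, the 10 libraries alone gave 2 and leaving out 1 library 4 to 13. Fewer libraries enter the fit of the 10 alone, and otherwise the cause was not tested. Of the settings tried, 11 of 21 for Trinity genes, 18 of 22 for transcripts and 10 of 14 for isoform shares stayed within 1.5 times the count. The 4 named features were chosen by the size or adjusted p of their change, so a steady sign largely follows from that choice. No named feature changed sign, and the fit of the 10 libraries alone left TRINITY_DN9575_c0_g2_i1 short of the threshold (edgeR adjusted p = 0.0542). Over all settings its log2 change ran from -1.92 to -1.55, that of TRINITY_DN13160_c0_g1 from -3.14 to -2.60, that of TRINITY_DN2935_c0_g1 from 3.58 to 4.77 and that of TRINITY_DN5399_c0_g1_i1 from 1.02 to 1.19.

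With the replicate number as a block, 142 Trinity genes, 105 transcripts and 7 isoform shares were called. Deviations of same-numbered weathered and control libraries correlated at -0.15 to 0.11, and 0 of 5 weathered libraries correlated best with their own number. The labels do not say what the number stands for. So few pairs cannot show whether same-numbered libraries shared an origin. Precision was lowest in the least abundant of 4 equal bins of genes, where the median standard error of a log2 change was 0.48, against 0.12 in the most abundant. The part of depth in this was not tested.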

Other observations

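Of the deposited transcripts, 8 had 0 counts in all 5 control libraries and at least 1 count in all 5 weathered 2.68 g/L libraries, with at most 18 counts in a library. None of the 8 passed the filter on low counts. In the other direction, 2 transcripts were above 0 in all 5 control libraries and at 0 in all 5 weathered libraries, and 1 of these was called lower (edgeR adjusted p = 0.0214). Trinity genes with 1 isoform and with several were called at near shares, 0.859% of 11171 and 1.06% of 6819.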
